A study of Mus musculus with 7 samples.

Results

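The 10 genes described here encode bicarbonate transporters, carbonic anhydrases and ammonia channels of the kidney tubule. They were chosen by name: Slc4a1, Slc4a4, Slc4a7, Slc4a9, Slc26a4, Car2, Car4, Car12, Rhcg and Rhbg. All 10 are among the 16272 genes of the deposited count matrix. They are described across the authors' 16 cell clusters, and Slc4a1 and Slc26a4 also in single cells of cluster 7.

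Kidneys of 7 adult C57BL/6 mice aged 4 to 8 weeks were taken apart into single cells, whose transcript 3′ ends were sequenced after capture in droplets. A barcode on each molecule, the UMI, lets every captured molecule be counted once. By the labels, 3 mice carried the mTmG membrane reporter with a Cre driver (among them 1 Cdh16CremTmG and 1 SclCremTmG mouse) and 4 were wild type. In an mTmG mouse, Cre recombinase switches a membrane dye from red to green in the cells where its promoter has been active. The Cdh16 (Ksp) promoter is used for tubule epithelium and Scl for blood and vessel lineages. No source ties a barcode number to a mouse, so genotypes were not compared and each library stood as a kidney of 1 group.

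The matrix holds 43745 cells, against 57979 stated in the labels, with 707 to 15000 UMIs per cell. Libraries held 1383 to 14136 cells and 4217169 to 49997616 UMIs. Cluster 7 had 1729 cells, 84 to 510 per library, at a median of 3917 UMIs. It made up 8.10% and 8.54% of libraries 3 and 4, against 2.71% to 3.79% of the other 5. Different libraries shared barcodes, 960 of them in 2 libraries and 14 in 3, and 88 cluster 7 cells had such a barcode. Clusters are called by their markers where these were clear: 7 intercalated-like, 6 principal-like, 5 distal convoluted tubule-like, 4 loop of Henle-like, 1 endothelial-like, 11 macrophage-like and 13 B lymphocyte-like. Cluster 3, with 26482 cells, had 6 of 7 proximal tubule markers at their highest, but Hbb-bs and Hba-a1, which encode haemoglobin chains, led its folds, so it is called by its number. Clusters 8 (110 cells, led by Slc26a4 and Insrr), 9, 10 and 16 are also called by number.

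The kidney keeps blood pH steady by reclaiming filtered bicarbonate in the proximal tubule and by secreting acid or base in the collecting duct. Carbonic anhydrases speed the interconversion of carbon dioxide and bicarbonate that both steps need. Intercalated cells of type A secrete acid and return bicarbonate to blood through the basolateral chloride-bicarbonate exchanger AE1, encoded by Slc4a1. Type B cells secrete bicarbonate through the apical exchanger pendrin, encoded by Slc26a4. Ammonia, the main buffer of urinary acid, crosses collecting duct cells through the Rh channels Rhbg and Rhcg.

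Transcripts of 3 exchangers of the intercalated cell were concentrated in clusters 7 and 8, which together held 96.0% of all Slc4a1 UMIs, 94.98% of Slc26a4 UMIs and 95.4% of Slc4a9 UMIs. Slc4a1 (ENSMUSG00000006574, GRCm38 chromosome 11, 102348824 to 102366203, minus strand) ran from 306 through a median of 590 to 684 CPM (the gene's UMIs scaled to the UMI total of the library's cluster) in the 7 cluster 7 libraries. In principal-like cells it ran from 0 through 2.41 to 9.08 CPM in 6 libraries. Every cluster 7 library thus lay above every principal-like one. Slc26a4 (ENSMUSG00000020651, chromosome 12, 31519827 to 31559969, minus strand) ran from 637 through 862 to 969 CPM in cluster 7, against 0 through 1.70 to 15.8 CPM in principal-like cells, again without overlap. Slc4a9 (ENSMUSG00000024485, chromosome 18), which encodes the basolateral transporter AE4 of type B cells in mouse, ran from 139 through 185 to 349 CPM in cluster 7, against 0 through 0 to 3.63 CPM in principal-like cells.

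Cluster 8 stood beside cluster 7 for these genes, at 1129 ± 324 CPM of Slc26a4, 229 ± 109 CPM of Slc4a9 and 393 ± 174 CPM of Slc4a1 (SD, n = 4). In the 4 libraries that hold both, cluster 8 was above cluster 7 in 3 for Slc26a4 and in 2 for Slc4a9, and cluster 7 was above cluster 8 in 3 for Slc4a1. The share of cells with a UMI was also set beside that in cluster 3, though the reach of free RNA in the droplets was not tested. Slc4a1 had a UMI in 37.7% of cluster 7 cells and in 0.283% of cluster 3 cells, and Slc26a4 in 51.3% of cluster 7 cells and 0.725% of cluster 3 cells. Median depth was 3917 UMIs in cluster 7 and 2281 in cluster 3. In macrophage-like cells the third-highest mean Slc26a4 level, 43.4 CPM, came from 4 cells of library 5, which held all 46 Slc26a4 UMIs and all 11 Slc4a9 UMIs of that cluster. None of the 4 cells was among the 6% with the highest doublet scores. Slc4a1 also encodes band 3 of red blood cells. Outside clusters 7 and 8 it stood at 0.270 to 2.02 CPM by library. Library 3, with the highest Hbb-bs level there (1523 CPM), had the lowest Slc4a1 level, which rests on 1 UMI. The part of red blood cell RNA in these levels was not tested.

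The sodium-bicarbonate cotransporters had other patterns. Slc4a4, which encodes NBCe1, the basolateral exit for bicarbonate in the proximal tubule (ENSMUSG00000060961, chromosome 5, 88886818 to 89239653, plus strand), was highest in cluster 3, where 67.7% of cells had a UMI. It ran from 453 through 638 to 752 CPM in the 7 libraries of cluster 3. In 4 libraries of cluster 9 it ran from 452 through 498 to 503 CPM. The leading genes of cluster 9 are of cell division, but it also held proximal tubule markers. Their pooled level was 3602 CPM there, with a UMI in 97.3% of cells. Cluster 3 was higher than cluster 9 in 4 of 4 libraries, and an exact two-sided sign-flip permutation test gave p = 0.125, the smallest that 4 libraries allow. Mean Slc4a4 levels in the other clusters were at most 196 CPM (cluster 12). Per 100 UMIs of the 7 proximal tubule markers, Slc4a4 had 10.1 UMIs in cluster 3 and 8.84 (cluster 12) to 20.4 (cluster 8) in the 15 others, while the markers' own pooled level ran from 261 CPM in cluster 8 to 6674 CPM in cluster 3. The part of free proximal tubule RNA in Slc4a4 levels outside cluster 3 was not tested beyond this ratio.

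Slc4a7, which encodes the electroneutral cotransporter NBCn1 (ENSMUSG00000021733, chromosome 14, 14702279 to 14799940, plus strand), was low everywhere, with 536 UMIs in all. Its highest means were in B lymphocyte-like cells (33.8 ± 35.3 CPM, n = 7), cluster 16 (27.1 ± 9.70 CPM, n = 3) and cluster 10 (19.97 ± 4.87 CPM, n = 7), and their ranges overlapped. Among tubule clusters it was highest in loop of Henle-like cells, at 8.39 through 9.96 to 17.5 CPM, above all 7 values of distal convoluted tubule-like cells, which ran from 0 through 1.26 to 4.25 CPM. NBCn1 is known from the thick ascending limb in rat.

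Car2 and Car12 had their highest means in clusters 7 and 8, and Car4 in cluster 3. Car2, the cytosolic enzyme (ENSMUSG00000027562, chromosome 3, 14886273 to 14900770, plus strand), was detected in 94.3% of cluster 7 cells and ran there from 1555 through 1785 to 2842 CPM. Cluster 8 followed (1307 ± 118 CPM, n = 4), then principal-like cells (697 ± 328 CPM, n = 6), cluster 9 and cluster 3 (311 ± 117 CPM, n = 7). Car12, an enzyme anchored in the plasma membrane with its active site outside the cell (ENSMUSG00000032373, chromosome 9, 66713686 to 66766845, plus strand), ran from 975 through 1282 to 1583 CPM in cluster 7 and from 139 through 172 to 270.3 CPM in cluster 3, without overlap. It averaged 1583 ± 426 CPM in cluster 8 (n = 4), which was above cluster 7 in 2 of the 4 shared libraries. Car4, tethered to the membrane by a lipid anchor (ENSMUSG00000000805, chromosome 11, 84957786 to 84966044, plus strand), was highest in cluster 3, at 60.6 through 92.3 to 213 CPM, and in loop of Henle-like cells, at 57.0 through 109.6 to 132 CPM. These ranges overlapped. Car4 had 12.5 UMIs per 100 proximal tubule marker UMIs in loop of Henle-like cells and 1.38 in cluster 3. Its lowest means were in cluster 7, at 3.20 to 7.78 CPM, and in cluster 8, where none of the 110 cells had a UMI, which allows up to 5.15 CPM by the limit of 3 counts.

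Both ammonia channel genes had their 4 highest means in clusters 5, 6, 7 and 8. Rhcg, which encodes an apical and basolateral channel (ENSMUSG00000030549, chromosome 7, 79593363 to 79617657, minus strand), ran from 578 through 713 to 923 CPM in 4 libraries of cluster 8, from 422 through 686 to 1093 CPM in principal-like cells, from 259 through 359 to 436 CPM in cluster 7 and from 87.4 through 117 to 240 CPM in distal convoluted tubule-like cells. Rhbg, the basolateral channel (ENSMUSG00000104445, chromosome 3, 88242874 to 88254709, minus strand), ran from 277 through 761 to 1055 CPM in cluster 8, from 361 through 658 to 824 CPM in cluster 7, from 172 through 365 to 783 CPM in principal-like cells and from 11.2 through 20.8 to 106 CPM in distal convoluted tubule-like cells. The cluster 7 and principal-like ranges overlapped for both channels. Each lies over an annotated gene on the same strand that the matrix does not list (Gm38392 for Rhbg, Gm45170 for Rhcg).

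**Figure D1:**
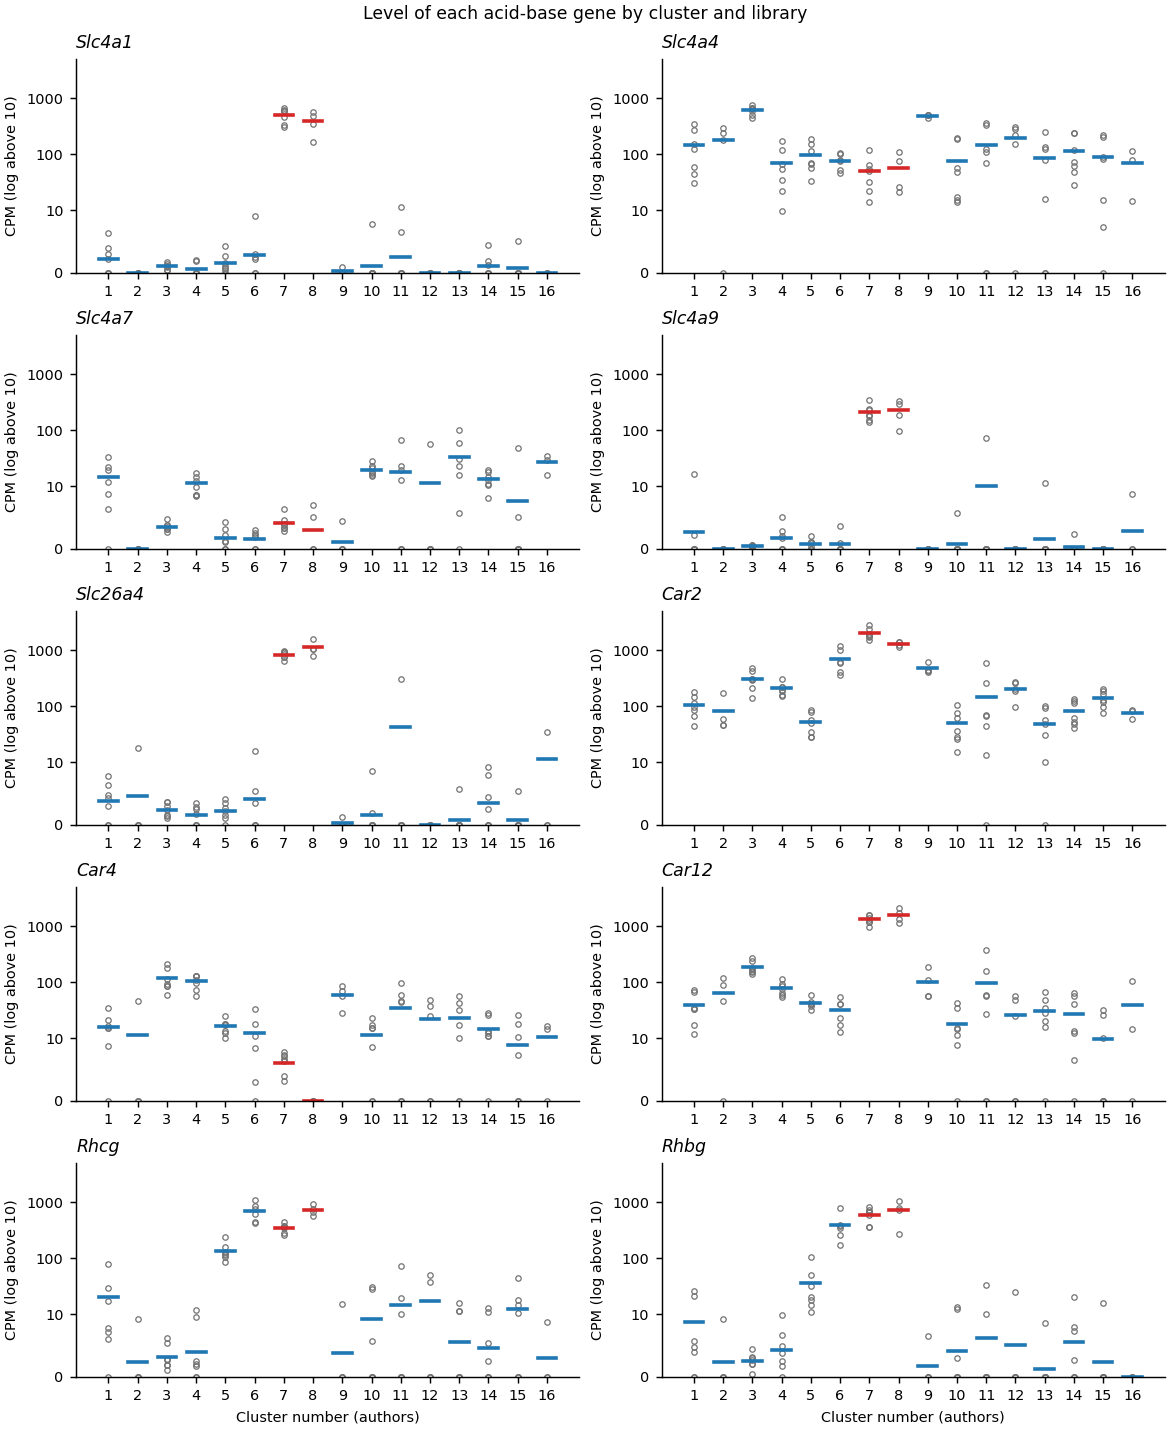
Level of each gene in CPM (log scale above 10, linear below) against the authors' cluster number, with an open circle for each library holding at least 5 cells of the cluster and a bar for the mean, red for clusters 7 and 8. Slc4a1, Slc4a9 and Slc26a4 stand high in clusters 7 and 8, Slc4a4 in clusters 3 and 9, and Rhcg and Rhbg in clusters 5 to 8.

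Neighbours in each gene's order of clusters were compared within libraries (ranks 1 and 2, 2 and 3, 3 and 4, log2 of CPM plus 10, exact two-sided sign-flip permutation tests). The ranks came from the same values, so the p-values and directions below are not independent of the order. Of 30 such pairs, 0 passed after Benjamini-Hochberg adjustment, the smallest adjusted p being 0.117, and 6 had p under 0.05 before it. No pair could have passed, since with 3 to 7 shared libraries a pair the smallest adjusted p these exact tests allow is 0.0781. In these exact tests the 6 are cluster 7 above cluster 11 for Slc4a9 and for Slc26a4, cluster 7 above cluster 3 for Car12 and cluster 7 above cluster 5 for Rhcg (7 of 7 libraries, p = 0.0156 each, the smallest that 7 libraries allow), with cluster 6 above cluster 7 for Rhcg and above cluster 5 for Rhbg (6 of 6, p = 0.0312). Clusters 7 and 8 were neighbours for Slc4a1, Slc4a9, Slc26a4, Car2, Car12 and Rhbg, and shared 4 libraries, which cannot give a p below 0.125. For Rhbg, cluster 7 exceeded cluster 6 in 5 of 6 libraries (exact test, p = 0.0938).

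The fold between clusters was fitted over all genes with edgeR's quasi-likelihood test, with Benjamini-Hochberg adjustment over the 7952 genes tested and a threshold of 0.05. Because the clusters were drawn by the authors from the same counts, the p-values are not independent of the clustering. Where ranges are said not to overlap between clusters or classes, the share of all tested genes without overlap was not counted. Against principal-like cells, 6 of the 10 genes were higher in cluster 7 and 1 was lower, where 12.9% of all tested genes were higher and 12.3% lower. The median log2 fold of the 10 was 1.43, against -0.01 over all genes tested.

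Slc26a4 had a log2 fold of 7.73 ± 0.379 (SE, edgeR adjusted p = 1.54e-34) in cluster 7 against principal-like cells, and Slc4a1 of 7.04 ± 0.306 (adjusted p = 4.05e-36). The Slc4a9 fold rests on 3 UMIs in principal-like cells, and in the 6 libraries with both clusters the pooled CPM ratio was 190 (exact 95% interval 64.8 to 921, counting error only). Car12 was higher by 5.39 ± 0.316 and Car2 by 1.83 ± 0.261. Car2 differed in 6 of 6 libraries and its ranges did not overlap. The Rh genes went opposite ways. Rhbg was higher in cluster 7 by 1.03 ± 0.222 (edgeR adjusted p = 0.000103, 5 of 6 libraries), though not past the test without the library term (adjusted p = 0.157). Rhcg was lower by a log2 fold of -0.70 ± 0.207 (edgeR adjusted p = 0.00577), lower in 6 of 6 libraries. The Rhcg call was lost with DESeq2 (adjusted p = 0.269) and without library 1 (0.0591) or library 6 (0.0731). Slc4a4 (-0.42 ± 0.298), Slc4a7 (0.91 ± 0.685) and Car4 (-0.68 ± 0.461) did not pass the test.

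Cluster 7 was also set against distal convoluted tubule-like cells, the segment upstream of the collecting system. There 7 of the 10 genes were higher and 2 lower, with 14.5% of all tested genes higher and 17.7% lower. The median log2 fold of the 10 was 4.36, against -0.04 over all genes. Slc26a4 was higher by 8.48 ± 0.316, Slc4a1 by 7.73 ± 0.241 and Slc4a9 by 7.71 ± 0.298 on the log2 scale, in 7 of 7 libraries each. Car2 was higher by 5.03 ± 0.280, Car12 by 4.70 ± 0.258, Rhbg by 4.02 ± 0.232 and Rhcg by 1.17 ± 0.195. Car4 was lower, with a log2 fold of -1.61 ± 0.317 and 3.20 to 7.78 CPM in cluster 7 against 10.3 to 25.1 CPM in distal convoluted tubule-like cells. Slc4a4 was lower as well (-1.26 ± 0.250, edgeR adjusted p = 1.64e-05), a call lost without the library term (adjusted p = 0.0564). The summed proximal tubule markers, all 7 of which were detected in both clusters, moved the same way, at 216 to 840 CPM in cluster 7 and 456 to 1608 CPM in distal convoluted tubule-like cells. Their part in the Slc4a4 difference was not tested.

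Principal-like cells had 3 members higher than distal convoluted tubule-like cells (11.8% of all tested genes were higher) and 1 lower (14.7%), and the median log2 fold of the 10 was 0.38, against -0.03 over all genes. Car2 was higher by 3.20 ± 0.276, Rhbg by 2.99 ± 0.238 and Rhcg by 1.87 ± 0.209 on the log2 scale, in 6 of 6 libraries each and without overlap between the groups. Slc4a4 was lower (-0.84 ± 0.281, edgeR adjusted p = 0.0159), in 4 of 6 libraries. That call was lost with DESeq2 (adjusted p = 0.0770), without the library term (0.433), without the highest doublet scores (0.453) and without library 2 (0.0814) or 5 (0.0608). The proximal tubule marker sum was 218 to 781 CPM in principal-like cells and 456 to 1608 CPM in distal convoluted tubule-like cells.

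Loop of Henle-like cells had 3 members higher than distal convoluted tubule-like cells (5.77% of all tested genes) and 3 lower (6.92%), with a median log2 fold of 0.09, against -0.06 over all genes. Car4 was higher by 2.41 ± 0.228, Slc4a7 by 2.23 ± 0.435 and Car2 by 1.76 ± 0.261 on the log2 scale, each in 7 of 7 libraries and without overlap. Rhcg had a log2 fold of -5.15 ± 0.334 and Rhbg of -3.26 ± 0.409, lower in 7 of 7 libraries. Slc4a4 was lower by the test (-0.81 ± 0.250, edgeR adjusted p = 0.0165), but not with DESeq2 (adjusted p = 0.0624), without the library term (0.490), without library 2 (0.189) or 3 (0.0505), or without libraries 3 and 4 together (0.0625). The proximal tubule marker sum was 356 to 1439 CPM in loop of Henle-like cells and 456 to 1608 CPM in distal convoluted tubule-like cells, and its part in the Slc4a4 difference was not tested.

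Cluster 3 had 3 members higher than loop of Henle-like cells (25.4% of all tested genes) and 2 lower (21.1%), with a median log2 fold of 0.56, against 0.08 over all genes. Slc4a4 was higher by 3.73 ± 0.249 and Car12 by 1.496 ± 0.243 on the log2 scale, in 7 of 7 libraries each. Car2 was higher by 0.78 ± 0.244 (edgeR adjusted p = 0.00513) in 5 of 7 libraries, and missed the threshold without library 7 (adjusted p = 0.0593). Car4 was at 0.37 ± 0.190 and did not pass (edgeR adjusted p = 0.103). Slc4a7 was lower (-1.35 ± 0.366) in 7 of 7 libraries. Slc4a9 was called lower (-1.83 ± 0.675, edgeR adjusted p = 0.0194) on 28 UMIs in cluster 3 and 8 in loop of Henle-like cells, and the call was lost after thinning to 1000 UMIs per cell (0.444) and without library 5 (0.109), 6 (0.102) or 7 (0.0505).

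**Figure D2:**
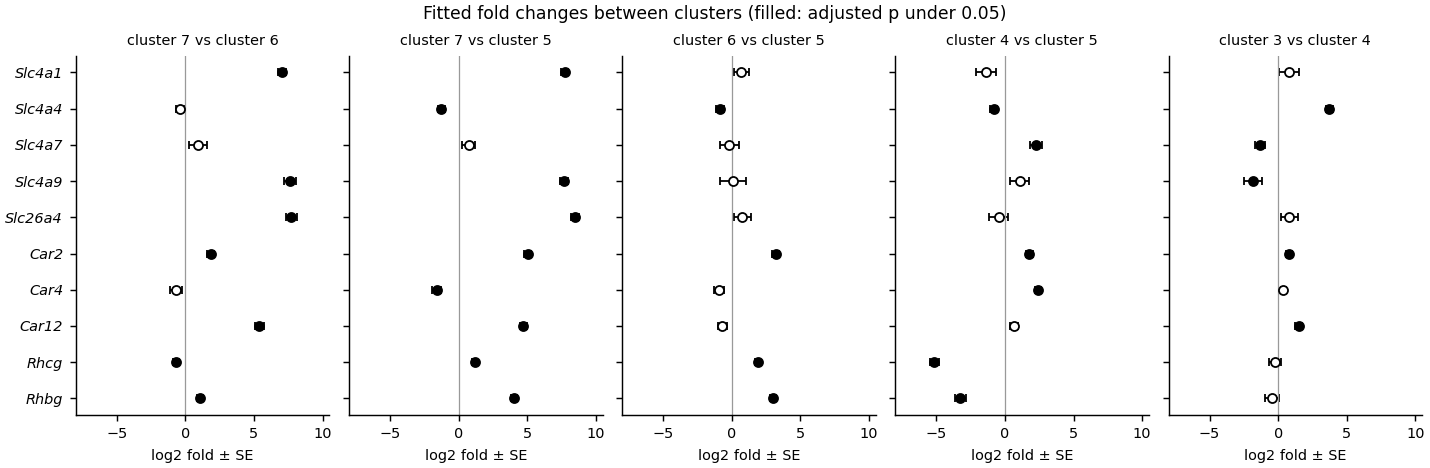
Fitted log2 fold change with its standard error (x axis) for each of the 10 genes (y axis) in 5 comparisons of clusters, the first-named cluster over the second; filled points have an adjusted p under 0.05. The exchangers Slc4a1, Slc4a9 and Slc26a4 lie between 7.04 and 8.48 in both cluster 7 comparisons, and Rhcg is the 1 filled point left of 0 against cluster 6.

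Of 54 other acid-base genes listed by function, 47 were in the matrix and 22 were tested between clusters. In cluster 7, 14 were higher and 2 lower than in principal-like cells, where 12.9% and 12.3% of all tested genes were. Than in distal convoluted tubule-like cells, 14 were higher and 5 lower, where 14.5% and 17.7% of all tested genes were. The median log2 folds were 1.83 and 1.68, against -0.01 and -0.04 over all genes. All 9 tested regulators and receptors of acid-base cells were higher in both comparisons, while of 4 anion exit partners 3 were higher against principal-like cells, and 1 was higher and 2 were lower against distal convoluted tubule-like cells. Against principal-like cells the largest folds were of the alkali-sensing receptor Insrr (log2 fold 7.80 ± 0.405), the transcription factor Hmx2 (7.47 ± 0.358), the receptor Adgrf5 (7.28 ± 0.321), the receptor kinase Kit (6.79 ± 0.401) and the forkhead factor Foxi1 (6.48 ± 0.315), which intercalated cells need to form in mouse. The vasopressin receptor Avpr1a had 3 UMIs in principal-like cells, with a pooled CPM ratio of 98.7 (exact 95% interval 33.6 to 480). Against distal convoluted tubule-like cells the largest folds were those of Insrr at 8.28 ± 0.301 and Kit at 8.22 ± 0.315, followed by Avpr1a at 7.52, Foxi1 at 7.31, Hmx2 at 7.21 and Adgrf5 at 7.17.

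Principal-like against distal convoluted tubule-like cells had 3 of 22 higher and 5 lower, where 11.8% and 14.7% of all tested genes were, among them the sulfate transporter Slc26a2 (1.62 ± 0.299) higher, and the membrane enzyme Car14 (-1.36 ± 0.355) and Slc26a1 (-1.25 ± 0.380) lower. Car15, a membrane-bound carbonic anhydrase, had 19 UMIs in principal-like cells and 3 in distal convoluted tubule-like cells, and a pooled ratio of 79.8 (19.2 to 706) over the 6 shared libraries. Loop of Henle-like against distal convoluted tubule-like cells had 4 of 22 higher and 2 lower, where 5.77% and 6.92% of all tested genes were. Car15 had a pooled ratio of 257 (85.9 to 1264) there, on 122 and 3 UMIs, with Avpr1a (3.75 ± 0.489) and the Notch ligand Jag1 (1.91 ± 0.270) higher, and the oxoglutarate receptor Oxgr1 (-1.33 ± 0.287) and the potassium-chloride cotransporter Slc12a7 (-0.77 ± 0.222) lower. Cluster 3 against loop of Henle-like cells had 4 of 22 higher and 10 lower, where 25.4% and 21.1% of all tested genes were, among the lower ones Car15 (-5.99 ± 0.327), the proton pump gene Atp4a (-5.79 ± 0.301), Bsnd (-5.44 ± 0.246) and Avpr1a (-4.09 ± 0.427).

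Across the 16 cluster means of log2 CPM plus 10, the genes most like each member were found as a description, since the points share libraries and free RNA. Slc4a1 was closest to Dmrt2 (Pearson r = 0.999), Aqp6, Hmx2, Cpsf4l and Foxi1, and Slc26a4 to Insrr (0.995), Foxi1, Hepacam2, Atp6v1g3 and Atp6v0d2. Slc4a9 was closest to Foxi1 (0.996), Insrr, Hepacam2, Atp6v0d2 and Aqp6. Slc4a4 was closest to Folr1 (0.980), Slc3a1, Dnajc12, Tmem27 and Slc7a9, and Car4 to Cldn10 (0.914), Nit2, Ggt1, Osbpl6 and Hao2. Car2 was closest to Nedd4l (0.875), Clcn3, Trak1, Atp6v1a and Cox7a1, and Car12 to Rnf152 (0.931), Clcn5, Dmxl1, Pam and Avpr1a. Rhcg was closest to Kcnq1 (0.964), Slc44a3, Scnn1b and Shisa4, and Rhbg to Slc44a3 (0.976), Tmem117, Bmpr1b and Spink8. Slc4a7 had the least close set, led by Smap2 (0.870), Ifi27l2a, St8sia4, Akap13 and AI662270. Among the members themselves, Slc4a9 and Slc26a4 had r = 0.991, Slc4a1 and Slc26a4 0.966 and Rhcg and Rhbg 0.967 over the 16 clusters.

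Although Slc4a1 and Slc26a4 both marked cluster 7, single cells rarely held both. Of the 1729 cells, 20 had UMIs of both (1.16%, 95% Wilson interval 0.750 to 1.78, counting error only), 631 of Slc4a1 alone (36.5%), 867 of Slc26a4 alone (50.1%) and 211 of neither (12.2%). The product of the shares within libraries gives 315.5 cells with both, so the observed number was 0.0634 of it. By library 1 to 7, cells with both numbered 3, 1, 0, 0, 7, 8 and 1, against products of 18.1, 27.0, 19.3, 33.4, 90.3, 92.4 and 35.0. Every library lay below its product. The authors drew the clusters from the same counts, so these numbers and the test below are not independent of the clustering. Cluster 8, where 28 of 110 cells held both, is not part of them.

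The log2 odds ratio of detecting one exchanger given the other averaged -7.13 ± 0.925 (SD, n = 7 libraries, range -8.19 to -5.48). It was below 0 in 7 of 7 libraries (exact two-sided sign-flip permutation test, p = 0.0156, the smallest that 7 libraries allow). Of cells with Slc4a1, 3.07% also had Slc26a4, and of cells with Slc26a4, 2.25% also had Slc4a1. Both shares lie above the 0.725% and 0.283% found for these genes in cluster 3, whose cells are shallower. In principal-like cells, at a median of 2894.5 UMIs, the shares were 1.26% for Slc26a4 and 0.690% for Slc4a1. In the 42 cells of cluster 16, at a median of 5703 UMIs, they were 7.14% and 0%. The part of free RNA in the double detection was not tested. With at least 2 UMIs required of an exchanger, 12 cells had both and the mean log2 odds ratio was -6.09. After thinning every cell to 1000 UMIs it was -5.55 with 8 such cells of 1691, and at 2000 UMIs -6.94 with 12 of 1375. Cells without any red blood cell or proximal tubule marker UMI gave -7.05, with 7 of 727.

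Depth differed between the classes. Median UMIs per cell were 6458.5 in the 20 cells with both, 3740 in cells with Slc4a1 alone, 4804 in cells with Slc26a4 alone and 1587 in cells with neither. With cluster 7 split into 4 equal parts by depth, in the shallowest (718 to 2243 UMIs) 35.2% of cells had neither and 3 had both, and in the deepest (5854 to 11654 UMIs) 1.15% had neither and 13 had both. The product gave 46.3 cells with both in the shallowest and 86.6 in the deepest. The part of cells with neither that only lacked depth was not tested.

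**Figure D3:**
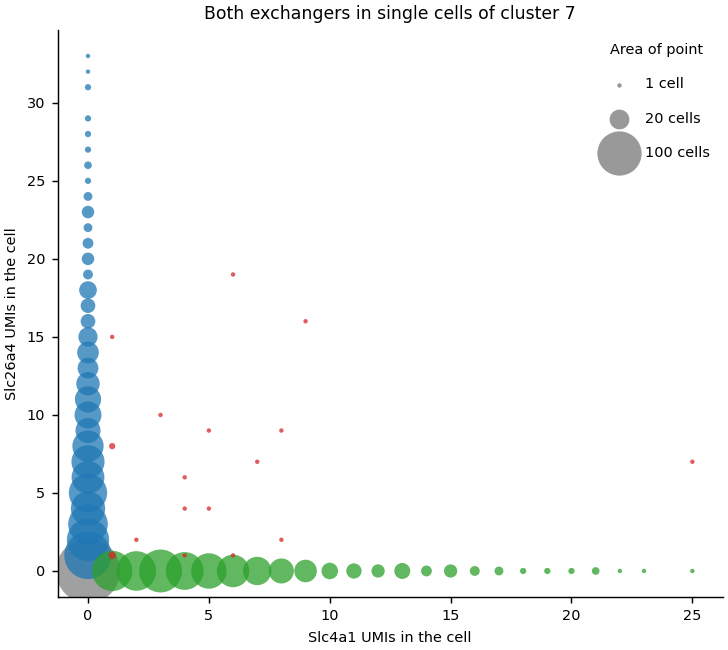
UMIs of Slc26a4 (y axis) against UMIs of Slc4a1 (x axis) in single cells of cluster 7, with point area proportional to the number of cells; red points hold both, green Slc4a1 only, blue Slc26a4 only and grey neither. Nearly all cells lie on an axis, up to 25 UMIs of Slc4a1 and 33 of Slc26a4, and 20 cells lie between.

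**Figure D4:**
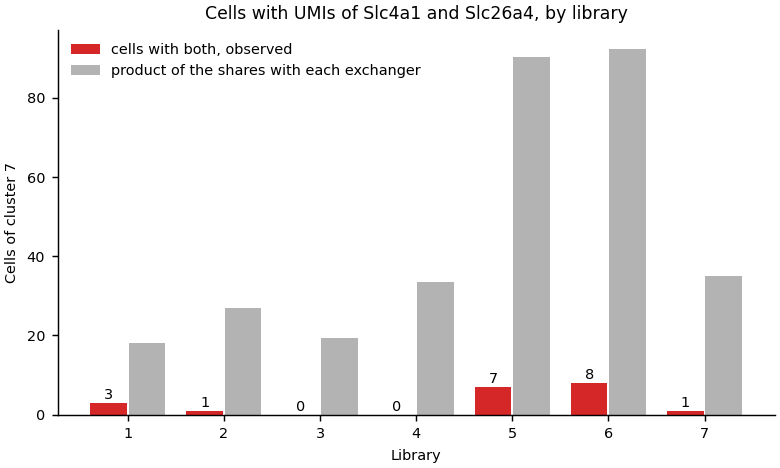
Cells of cluster 7 with UMIs of both exchangers in each library (red, with the count above) and the number the product of the shares gives (grey). The red bars, 0 to 8 cells, lie below the grey ones, 18.1 to 92.4 cells, in each library.

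Of the 20 cells with both, 5 had more Slc4a1 UMIs, 9 had more Slc26a4 UMIs and 6 had equal numbers. In 8 of them an exchanger rested on 1 UMI, and in 6 both had at least 5. The cell with the most Slc4a1 held 25 Slc4a1 and 7 Slc26a4 UMIs of 10902, and the cell with the most Slc26a4 held 6 Slc4a1 and 19 Slc26a4 UMIs of 7843. Among the 6% highest doublet scores of their libraries were 2 of the 20 (10%), against 8.56% of cells with Slc4a1 alone, 9.69% with Slc26a4 alone and 19.9% with neither. Of the 20 barcodes, 1 also occurred in another library. In cluster 8, 28 of 110 cells had both (25.5%, Wilson interval 18.2 to 34.3), at a median of 5296 UMIs. Cluster 5 and cluster 9 had 1 such cell each, and the other 12 clusters none.

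The other members divided between the exchanger classes of cluster 7. Against cells with Slc26a4 alone, cells with Slc4a1 alone had more Rhbg and Rhcg and less Slc4a9 and Car12, so that 2 of the 6 members tested were higher and 2 lower. Over all 4841 genes tested, 8.16% were higher and 7.95% lower. The median log2 fold of the 6 was -0.05, against 0.01 over all genes. Slc4a1 and Slc26a4 define the classes and have no test, and Slc4a7 and Car4 were too low for one.

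Rhbg ran from 544 through 884 to 1294 CPM in Slc4a1-only cells, against 249 through 458 to 593 CPM in Slc26a4-only cells, and was higher in 7 of 7 libraries although the ranges met. Its log2 fold was 1.08 ± 0.114 (edgeR adjusted p = 1.74e-16). Rhcg ran from 349 through 462 to 606 CPM, against 207 through 297 to 394 CPM in Slc26a4-only cells, higher in 7 of 7 libraries, with a log2 fold of 0.62 ± 0.117 (edgeR adjusted p = 5.39e-06). Without the library term its adjusted p was 0.0640. Rhcg ranges met as well.

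Car12 ran from 488 through 666 to 949 CPM in Slc4a1-only cells, against 1332 through 1894 to 2141 CPM in Slc26a4-only cells, without overlap (log2 fold -1.43 ± 0.116, edgeR adjusted p = 4.18e-25). Slc4a9 ran from 65.4 through 108 to 216 CPM in Slc4a1-only cells, against 170 through 292 to 421 CPM in Slc26a4-only cells, lower in 7 of 7 libraries (log2 fold -1.20 ± 0.139, edgeR adjusted p = 6.26e-14). A UMI of Slc4a9 was found in 30.1% of Slc4a1-only cells and 61.4% of Slc26a4-only cells, and in 0.102% of cluster 3 cells. After thinning to 1000 UMIs the shares were 9.76% of Slc4a1-only and 22.1% of Slc26a4-only cells.

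Car2 did not pass the test between the classes, at 1915 ± 475 CPM in Slc4a1-only cells and 2071 ± 488 CPM in Slc26a4-only cells (log2 fold -0.12 ± 0.107, edgeR adjusted p = 0.528). Slc4a4 was at 50.4 ± 34.0 CPM in Slc4a1-only cells and 49.6 ± 39.2 CPM in Slc26a4-only cells (SD, n = 7 each; log2 fold 0.01 ± 0.200, edgeR adjusted p = 0.979). The proximal tubule markers summed to 166 to 869 CPM in Slc4a1-only cells and 152 to 795 CPM in Slc26a4-only cells. Slc4a7 had 15 UMIs in Slc4a1-only and 13 in Slc26a4-only cells, and Car4 had 11 in Slc4a1-only and 33 in Slc26a4-only cells. Red blood cell markers summed to 0 to 40.6 CPM in Slc4a1-only cells and 0 to 17.6 CPM in Slc26a4-only cells, with Hbb-bt, Hba-a2 and Alas2 at 0 in Slc4a1-only cells and Alas2 at 0 in Slc26a4-only cells.

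**Figure D5:**
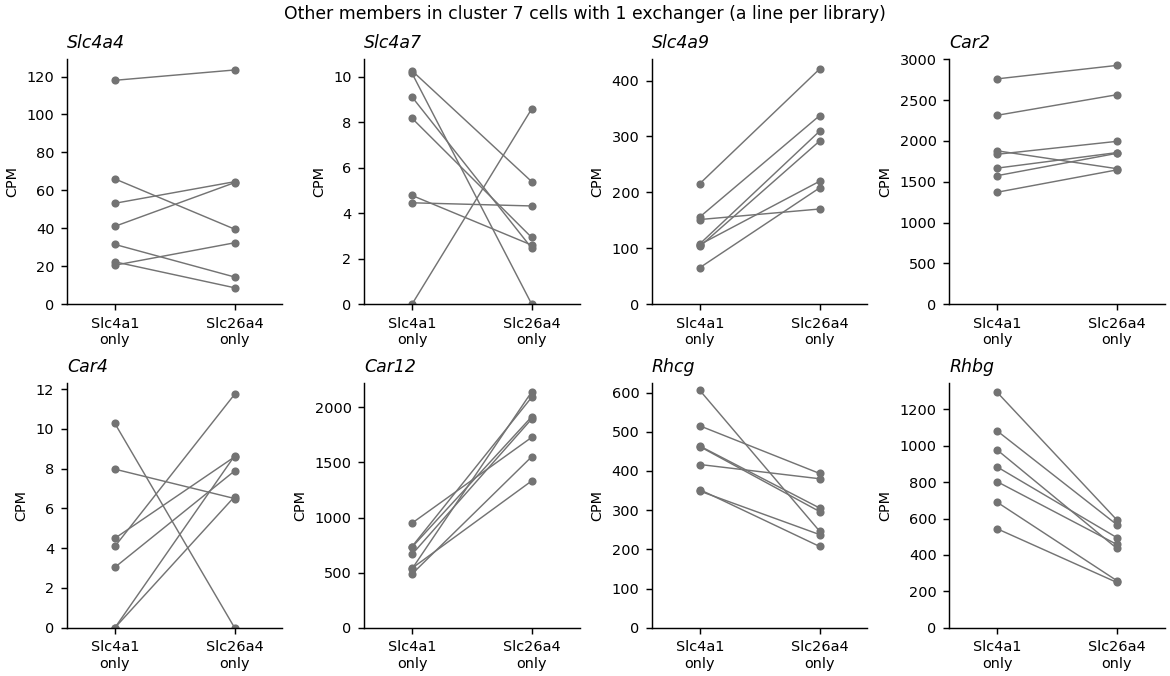
CPM of the 8 other members in cluster 7 cells with UMIs of Slc4a1 only (left) and Slc26a4 only (right), a line for each of the 7 libraries, each panel on its own axis from 0. Lines for Slc4a9 and Car12 go up to the right in 7 of 7 libraries, those for Rhcg and Rhbg go down in 7 of 7, and those for Slc4a4 cross.

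Of the listed acid-base genes, 7 of 19 tested were higher in Slc4a1-only cells and 5 lower, where 8.16% and 7.95% of all tested genes were. The transcription factor Dmrt2 had 444 UMIs in Slc4a1-only and 2 in Slc26a4-only cells, a pooled ratio of 388 (exact 95% interval 107 to 3217). Hmx2 had a log2 fold of -7.95 ± 0.241 and ran from 0 to 11.2 CPM in Slc4a1-only cells, against 748 to 1187 CPM in Slc26a4-only cells. Insrr was lower (-4.91 ± 0.194) and so was Car15 (-2.65 ± 0.335), while Adgrf5 (4.67 ± 0.158) and Kit (3.63 ± 0.158) were higher. The ranges of these 4 genes did not overlap between the classes. They were named for the size of their folds, and the share without overlap over all genes was not counted.

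Car12 was higher in cells with Slc26a4 alone, and the 250 bases before the start sites of both genes are shown. Forkhead factors, Foxi1 among them, bind a core that reads TGTTTA, or TAAACA on the other strand, and matches to it are in capitals (RefSeq promoters, GRCm38.p6, 5′ to 3′ on the gene's strand).
Slc26a4, chr12:31559985-31560234, minus strand: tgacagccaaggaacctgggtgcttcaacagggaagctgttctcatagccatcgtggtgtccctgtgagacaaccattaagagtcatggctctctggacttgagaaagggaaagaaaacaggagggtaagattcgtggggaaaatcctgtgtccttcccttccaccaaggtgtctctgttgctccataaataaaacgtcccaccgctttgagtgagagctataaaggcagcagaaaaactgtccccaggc
Car12, chr9:66713436-66713685, plus strand: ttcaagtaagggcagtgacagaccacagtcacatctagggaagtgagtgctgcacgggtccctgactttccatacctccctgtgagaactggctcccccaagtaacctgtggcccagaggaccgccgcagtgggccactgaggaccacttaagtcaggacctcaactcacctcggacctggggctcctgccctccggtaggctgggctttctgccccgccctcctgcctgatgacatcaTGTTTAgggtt
Car12 has 1 match, starting 11 bases before the start site, and Slc26a4 has none in this window. Of all 32851 promoters of this length, 12.0% hold a match on either strand. Promoters were matched for 6 of the 10 members, and Car12's was the 1 with a match. Any role of this match in the difference between the classes was not tested.

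The 20 cells with both exchangers gave sums in libraries 5 and 6 alone, of 7 and 8 cells, so the fits against the other classes are coarse. Against Slc4a1-only cells, 0 of 6 members passed by edgeR (2 had p under 0.05 before adjustment, and 0 of 4 with a DESeq2 value passed), where 0.413% of all tested genes were higher and 0.764% lower. Slc4a9 was at 282 and 138 CPM in the 2 sums of cells with both (log2 fold 0.94 ± 0.411, edgeR adjusted p = 0.305), and Car12 at 1464 and 1074 CPM (0.53 ± 0.234, adjusted p = 0.313). Against Slc26a4-only cells 1 member was lower and none higher, where 0.744% of all tested genes were higher and 0.868% lower. That member was Car12 (-0.90 ± 0.229, edgeR adjusted p = 0.0112), and the call was lost without library 5 (adjusted p = 0.126), without library 6 (0.373) and without the library term (0.442). The median log2 fold over all genes tested was -0.18 in both fits. With DESeq2 size factors in place of TMM scaling, the genes called against Slc4a1-only cells were 18 higher and 14 lower, in place of 20 and 37, and against Slc26a4-only cells 36 and 29, in place of 36 and 42.

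Among the 19 listed acid-base genes tested, 2 were higher and 1 lower in cells with both than in Slc4a1-only cells. Of all tested genes, 0.413% and 0.764% were. Than in Slc26a4-only cells, 3 were higher and 1 lower, where 0.744% and 0.868% of all tested genes were. Hmx2 (log2 fold 6.86 ± 0.539) and Insrr (4.41 ± 0.444) were higher and Adgrf5 lower (-1.67 ± 0.305) than in Slc4a1-only cells. Against Slc26a4-only cells, Kit (3.11 ± 0.430) and Adgrf5 (3.00 ± 0.410) were higher, Hmx2 was lower (-1.09 ± 0.295), and Dmrt2 had 8 UMIs in the 2 sums of cells with both and 1 in the same libraries' Slc26a4-only cells (pooled ratio 241, exact 95% interval 32.3 to 10680). Markers of other cell types were present in the 2 sums, which are of libraries 5 and 6. The ranges set against them cover 7 libraries of each single-exchanger class and are not paired by library. Distal convoluted tubule markers (4 of 4 detected) summed to 578 and 2769 CPM in cells with both. They summed to 40.9 to 1797 CPM in Slc4a1-only and 76.3 to 578 CPM in Slc26a4-only cells. Both 2769 and 1797 CPM were of library 5, and in library 6 Slc4a1-only cells stood above cells with both. Principal markers (5 of 7, Aqp2 and Fxyd4 at 0) summed to 441 and 771 CPM in cells with both, against 192 to 558 CPM in Slc4a1-only and 144 to 389 CPM in Slc26a4-only cells. Loop of Henle markers (3 of 5, Cldn16 and Cldn19 at 0) summed to 423 and 551 CPM in cells with both, against 36.8 to 242 CPM in Slc4a1-only and 132 to 381 CPM in Slc26a4-only cells. Proximal tubule markers summed to 413 and 758 CPM in cells with both, inside the ranges of both single classes. Those were 166 to 869 CPM in Slc4a1-only and 152 to 795 CPM in Slc26a4-only cells. Intercalated markers summed to 5978 and 8868 CPM in cells with both. They lay below the 9703 to 11433 CPM of Slc4a1-only and the 12247 to 13948 CPM of Slc26a4-only cells. The part of RNA of other cell types in the double detection was not tested.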

How the data were processed

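Single-cell libraries of 7 mouse kidneys were analysed from the raw UMI counts per gene and cell that the authors deposited, with the cluster number they gave to every cell. The submitters' processing notes name Cell Ranger 1.3, STAR and the build mm10 (GRCm38.p4), and how cells were filtered is not given in the sources used here. The library is the number at the end of each cell barcode. Depth was 4217169 to 49997616 UMIs per library, and intervals and limits cover counting error only.

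Counts were summed per library and cluster, or per library and exchanger class in cluster 7, where at least 5 cells were present. These sums were compared with edgeR 4.0.16 in R 4.3.3 (quasi-likelihood test, TMM scaling, filterByExpr, a term for the library, Benjamini-Hochberg adjustment over all genes tested, threshold 0.05). All clusters entered 1 fit and the classes another. The SE of a fold was derived from the test, as the absolute log2 fold over the square root of its F statistic. A gene counted as detected in a cell at 1 UMI or more, and co-detection was tested over libraries by the log2 odds ratio with 0.5 added to each count. Levels used Python 3.11.15 with scipy 1.17.1. Thinning drew each cell down to 1000 or 2000 UMIs. Doublet scores came from Scrublet in scanpy 1.11.5. Its own threshold marked too few cells to have worked, so removing the 6% top-scoring cells per library served as an alternative. DESeq2 1.42.0, other scaling, filters and cell minimums, no library term and leaving out libraries were further alternatives. Code was tested on simulated data.

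The members and gene lists were chosen with earlier results of these data known. Beside the 10 members, the text names up to 6 called genes of the acid-base list per comparison by size of fold, and the 5 genes most like each member among genes with at least 100 UMIs in all and 50 CPM in some cluster. Foxi1 and Hmx2 are on both the acid-base list and the intercalated marker list. A few items that fall under these rules are not reported here.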

Additional observations from a re-analysis of the deposited data

Results flagged for a closer look

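Of 71 groups of 6 or 7 libraries checked, 6 held a library far from the others. Chance gives about 1 in 20, a rate that does not hold for values resting on few counts. In principal-like cells, library 6 had 9.08 CPM of Slc4a1, against 0 to 2.95 CPM in the others, and 3.63 CPM of Slc4a9, against 0 to 0.852 CPM. The same cells of library 6 had 783 CPM of Rhbg, against 172 to 400.3 CPM in the others. Library 6 was also highest for Rhbg in distal convoluted tubule-like cells, with 106 CPM against 11.2 to 51.3 CPM. Library 2 had 15.8 CPM of Slc26a4 in principal-like cells, against 0 to 5.45 CPM in the others. Principal-like cells held 10 UMIs of Slc4a1, 3 of Slc4a9 and 14 of Slc26a4 in all. The flags of these exchangers thus rest on few counts. In cluster 7, 23.9% of the cells of library 5 had Slc4a1 alone, against 35.7% to 44.6% in the other libraries.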

How the results depend on the processing

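Of 1042 values of member folds under alternatives, 987 kept their direction and their side of the threshold, 24 lost a call, 10 gained one and 21 changed sign. The sign changes fell on 11 of 68 member results. The cause was not tested, except that thinning leaves fewer counts, fewer filters leave more genes and leaving out libraries leaves fewer sums.

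Genes called numbered 968 after thinning to 1000 UMIs for cluster 7 against 6 (2001 as reported), 1229 for 7 against 5 (2554), 1084 for 6 against 5 (2109), 517 for 4 against 5 (1009), 1963 for 3 against 4 (3700) and 211 for Slc4a1-only against Slc26a4-only cells (780). With no filter on low counts they numbered 3902 for 7 against 5 and 6205 for 3 against 4. Without the library block they numbered 617 for 4 against 5 and 329 for the exchanger classes. With the compared clusters alone in the fit, 4 against 5 gave 1706.

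For cells with both exchangers against Slc4a1-only cells, 57 genes were called (20 higher, 37 lower), against 115 with DESeq2 (11 higher, 104 lower), 32 with size factors (18 higher, 14 lower), 142 without the filter, 18 without the library block, 8 with at least 2 UMIs per exchanger, 34 without libraries 3 and 4 and 6 to 60 with a library left out. Against Slc26a4-only cells, 78 were called (36 higher, 42 lower), against 56 with DESeq2 (9 higher, 47 lower), 150 without the filter, 36 without the library block, 16 with at least 2 UMIs and 10 to 79 with a library left out. With size factors the split was 36 higher and 29 lower. Leaving out library 5 or 6, thinning to 1000 UMIs or requiring at least 2 UMIs per exchanger leaves 1 sum with both. That sum is assumed to vary like the other groups. No fit was possible with at least 20 cells per sum.

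Co-detection without libraries 3 and 4, an alternative chosen after seeing the data, gave a log2 odds ratio of -6.79 (exact sign-flip permutation test, p = 0.0625, the smallest that 5 libraries allow), and -7.41 to -6.96 with a library left out. The neighbour tests could not pass the threshold in this design, so their 0 calls under the alternatives say nothing about stability.

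Signs changed for these folds. Those of cells with both after thinning or with at least 2 UMIs rest on 1 sum with both. After thinning, Slc4a4 was at 0.12 for 7 against 6, Slc26a4 at -0.00742 for 6 against 5, Rhcg at 0.33 for 3 against 4, Slc4a9 at -5.71 and Car12 at -1.54 for cells with both against Slc4a1-only cells, and Rhcg at -0.37 for cells with both against Slc26a4-only cells.
With a library left out, Slc4a7 ran from -0.64 to 0.31, Slc4a9 from -1.21 to 0.43 and Slc26a4 from -0.066 to 1.09 for 6 against 5. For the exchanger classes Slc4a4 ran from -0.080 to 0.18, with -0.066 without library 2 and -0.022 without library 3, and was at -0.12 without libraries 3 and 4, -0.019 without the filter, -0.00259 with at least 20 cells per sum and -0.021 with at least 2 UMIs. For cells with both, Slc4a4 ran from -7.90 to 0.37 against Slc4a1-only and from -7.72 to 0.39 against Slc26a4-only cells with a library left out. Rhcg ran from -0.13 to 0.42 against Slc26a4-only cells, and was at -0.056 without the filter and -0.59 with at least 2 UMIs. All of these results were short of the threshold as reported.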

Other observations

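Cluster 8, which the labels do not describe, held intercalated and principal cell genes and 28 cells with both exchangers. Its mean log2 fold was 3.00 over the intercalated markers and 2.15 over the principal markers, against 3.51 and -2.14 in cluster 7. The part of principal cell RNA in its levels was not tested. Of the 110 cells of cluster 8, 22 had Slc4a1 alone, 59 had Slc26a4 alone and 1 had neither. Within the 4 libraries that hold it, cluster 8 was above principal-like cells for Rhcg in 1, and above cluster 7 for Slc26a4 in 3 and for Slc4a9, Car12 and Rhbg in 2 each. No genes were compared between cells with both exchangers in cluster 8 and those in cluster 7.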
